A study of Caenorhabditis elegans with 2 samples.

Results

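Calmodulin is a small EF-hand protein that binds calcium and then switches on enzymes, and it is the most widely used calcium sensor of animal cells. Its main effectors are the calmodulin-dependent kinases and calcineurin, a phosphatase made of a catalytic and a calcium-binding regulatory subunit. In C. elegans these proteins are best known from neurons, muscle and sensory behaviour. The 10 genes described here are cmd-1, which encodes calmodulin, the calmodulin-like genes cal-1, cal-2, cal-3 and cal-4, the kinase genes unc-43, cmk-1 and ckk-1, and the calcineurin genes tax-6 and cnb-1. They make up 10 of 19973 protein-coding genes, and all 10 were found by name in the annotation.

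The data are peak lists from chromatin immunoprecipitation and sequencing (ChIP-seq) with an antibody against GFP, in whole young adult worms of mixed sex, 72 hours old, grown from starved first-stage larvae. The strain, OP214, carries unc-119(ed3) on chromosome III and the transgene wgIs214, which encodes K12H6.12 with GFP and FLAG tags at its C-terminal end. There was 1 group with 2 biological replicates, numbered 2 and 3, both from this 1 transgenic line, so nothing was compared between conditions. No untagged sample was used here, and binding of K12H6.12 itself at these peaks was not tested.

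For each gene, summits were searched from 6000 bp upstream of the annotated 5' end to the 3' end, which is called its window below. The deposited lists held 2268 peaks reproducible between replicates (irreproducible discovery rate, IDR), 30000 in the pooled list, 27073 in replicate 2 and 30000 in replicate 3. The IDR peaks were the 2268 strongest of the pooled list, so the pooled signal also sets which summits count as IDR. Signal is the score of the authors' peak caller, whose scaling is not stated, and it ranks peaks within a list. Read depth is unknown from such lists. The 10 genes were chosen by name, with the signal of their peaks in these lists already known. Presence, number and height of the members' peaks are therefore given as a description with no test.

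The strongest peak of the set lay 4766 bp upstream of cmd-1, and its summit fell inside linc-128, a long intergenic non-coding RNA gene. A second summit lay between linc-128 and cmd-1, 2197 bp from the 5' end of the coding gene. The sequence around both is shown because they share a run of 11 bases, CGCATTGCGCA, in capitals below, found by comparing the windows of this gene after its peaks were known. Each line gives 101 bases of the plus strand of build ce11 centred on a summit, from the RefSeq assembly WBcel235.
cmd-1 summit 4766 bp upstream, chrV:1151455-1151555: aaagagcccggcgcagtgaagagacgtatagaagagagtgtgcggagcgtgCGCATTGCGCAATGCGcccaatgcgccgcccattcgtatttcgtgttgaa
cmd-1 summit 2197 bp upstream, chrV:1154024-1154124: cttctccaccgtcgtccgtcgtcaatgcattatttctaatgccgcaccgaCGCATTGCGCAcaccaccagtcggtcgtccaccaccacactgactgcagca
In the upper window the run stood on both strands, overlapping itself. Among all IDR summits it was held by 2 of 2268 windows of 101 bases, which are these 2, against 0 of 19973 windows of the same length centred 100 bp upstream of coding 5' ends. The 6 nuclear chromosomes hold it 19 times over both strands. Shortened by 1 base at each end, to GCATTGCGC, it was in 3 IDR windows and in 7 promoter windows. The run was taken from these windows, so the counts describe its rarity and nothing more.

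A second set shows the summit windows outside exons that hold GAGAGA on either strand, and the strongest tax-6 window, which does not, beside them. Capitals mark GAGAGA or its reverse complement TCTCTC, searched in every window.
unc-43 summit 4031 bp downstream, chrIV:10346136-10346236: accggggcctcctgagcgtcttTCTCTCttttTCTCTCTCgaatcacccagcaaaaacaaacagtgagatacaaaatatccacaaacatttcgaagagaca
unc-43 summit 5415 bp downstream, chrIV:10344752-10344852: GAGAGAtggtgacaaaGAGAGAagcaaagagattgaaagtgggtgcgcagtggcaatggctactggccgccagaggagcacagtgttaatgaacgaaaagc
unc-43 summit 7938 bp downstream, chrIV:10342229-10342329: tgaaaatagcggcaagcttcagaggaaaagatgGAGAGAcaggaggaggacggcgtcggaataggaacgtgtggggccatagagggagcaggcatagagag
tax-6 summit 934 bp upstream, chrIV:10502484-10502584: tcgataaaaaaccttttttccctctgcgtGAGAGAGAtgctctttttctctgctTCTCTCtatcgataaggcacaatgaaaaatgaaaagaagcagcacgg
tax-6 summit 1407 bp downstream, chrIV:10500143-10500243: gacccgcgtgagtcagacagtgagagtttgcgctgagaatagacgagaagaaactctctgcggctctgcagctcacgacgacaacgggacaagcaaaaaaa
cmk-1 summit 163 bp upstream, chrIV:1824268-1824368: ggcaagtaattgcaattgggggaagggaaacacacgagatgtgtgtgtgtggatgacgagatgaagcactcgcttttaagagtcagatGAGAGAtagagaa
GAGAGA was present at 6 of the 12 IDR summits in the members' windows, against 30.4% of all IDR summit windows and 9.03% of promoter windows. All 4 unc-43 summits held it, as did 1 of the 4 tax-6 summits and the cmk-1 summit, while neither cmd-1 summit nor that of cal-1 did. The strongest tax-6 summit had no GAGAGA, and the fourth unc-43 window, in an untranslated exon, is not shown. The same repeat shifted by 1 base, AGAGAG or CTCTCT, was not counted. It stands in the strongest tax-6 window, the stronger cmd-1 window and the cal-1 window, so these do not lack a GA repeat.

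For the other short motifs searched, the members' counts were close to the shares over all IDR summits. CACGTG (the E-box), TGACGTCA (the site known for CREB-family factors) and GTTCGA (the core of the tRNA B box) were each in 0 of the 12 windows, against 4.94%, 1.15% and 6.88% of all IDR summit windows. Of the 6-mers most over-represented at IDR summits, GCGGCC was in the unc-43 window at 5415 bp, and CGCGCC and CGCGAC, which share their opening letters CGCG, were both in the unc-43 window at 19018 bp. They were in 5.91%, 8.82% and 5.78% of all IDR windows and in 0.981%, 1.56% and 1.03% of promoter windows. Any of these 3 was in 2 of the 12 windows, against 17.9% of all IDR windows. No match says only that these letters are not within 50 bp of the summit. The members' windows had a median of 51.5% G and C, with 48.5% over all IDR windows and 33.7% over promoter windows. At 11 of the 12 summits every 31-mer within 100 bp was unique in the nuclear genome. The exception, the tax-6 summit 2290 bp upstream, had 97.1% unique 31-mers, and the largest copy number of any 31-mer there was 21.

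Of the 10 genes, 5 had at least 1 IDR summit in the window, namely cmd-1, tax-6, cmk-1, unc-43 and cal-1. Over all coding genes 18.0% had one. The members' windows were longer, with a median of 13.2 kb against 8.03 kb over all coding genes. Of the 1803 coding genes with a window of at least the members' median, 31.3% had a summit. In all, 12 IDR summits lay in the 10 windows, which is 0.823 per 10 kb, against 0.248 per 10 kb over all coding windows. Without cmd-1 the value was 0.725 per 10 kb. The genes tax-6 and unc-43 had 4 summits each, a number reached in 0.230% of all coding windows and in 1.83% of those at least as long as the members' median. The tax-6 summits 2290 and 2495 bp upstream lay under the same peak of each replicate. With the strongest 2268 peaks of replicate 3 alone, leaving out replicate 2, tax-6 had 3 summits. With the strongest 2268 peaks of replicate 2 alone, leaving out replicate 3, unc-43 had 2 summits. In the strongest 1134 IDR peaks unc-43 had 0 and tax-6 had 2. Only 2 members, tax-6 and cmk-1, had a summit in the promoter window, from 1000 bp upstream to 200 bp downstream of the 5' end, against 7.10% of coding genes. Since the members were chosen with these values known, nothing is read from the differences.

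**Figure D1:**
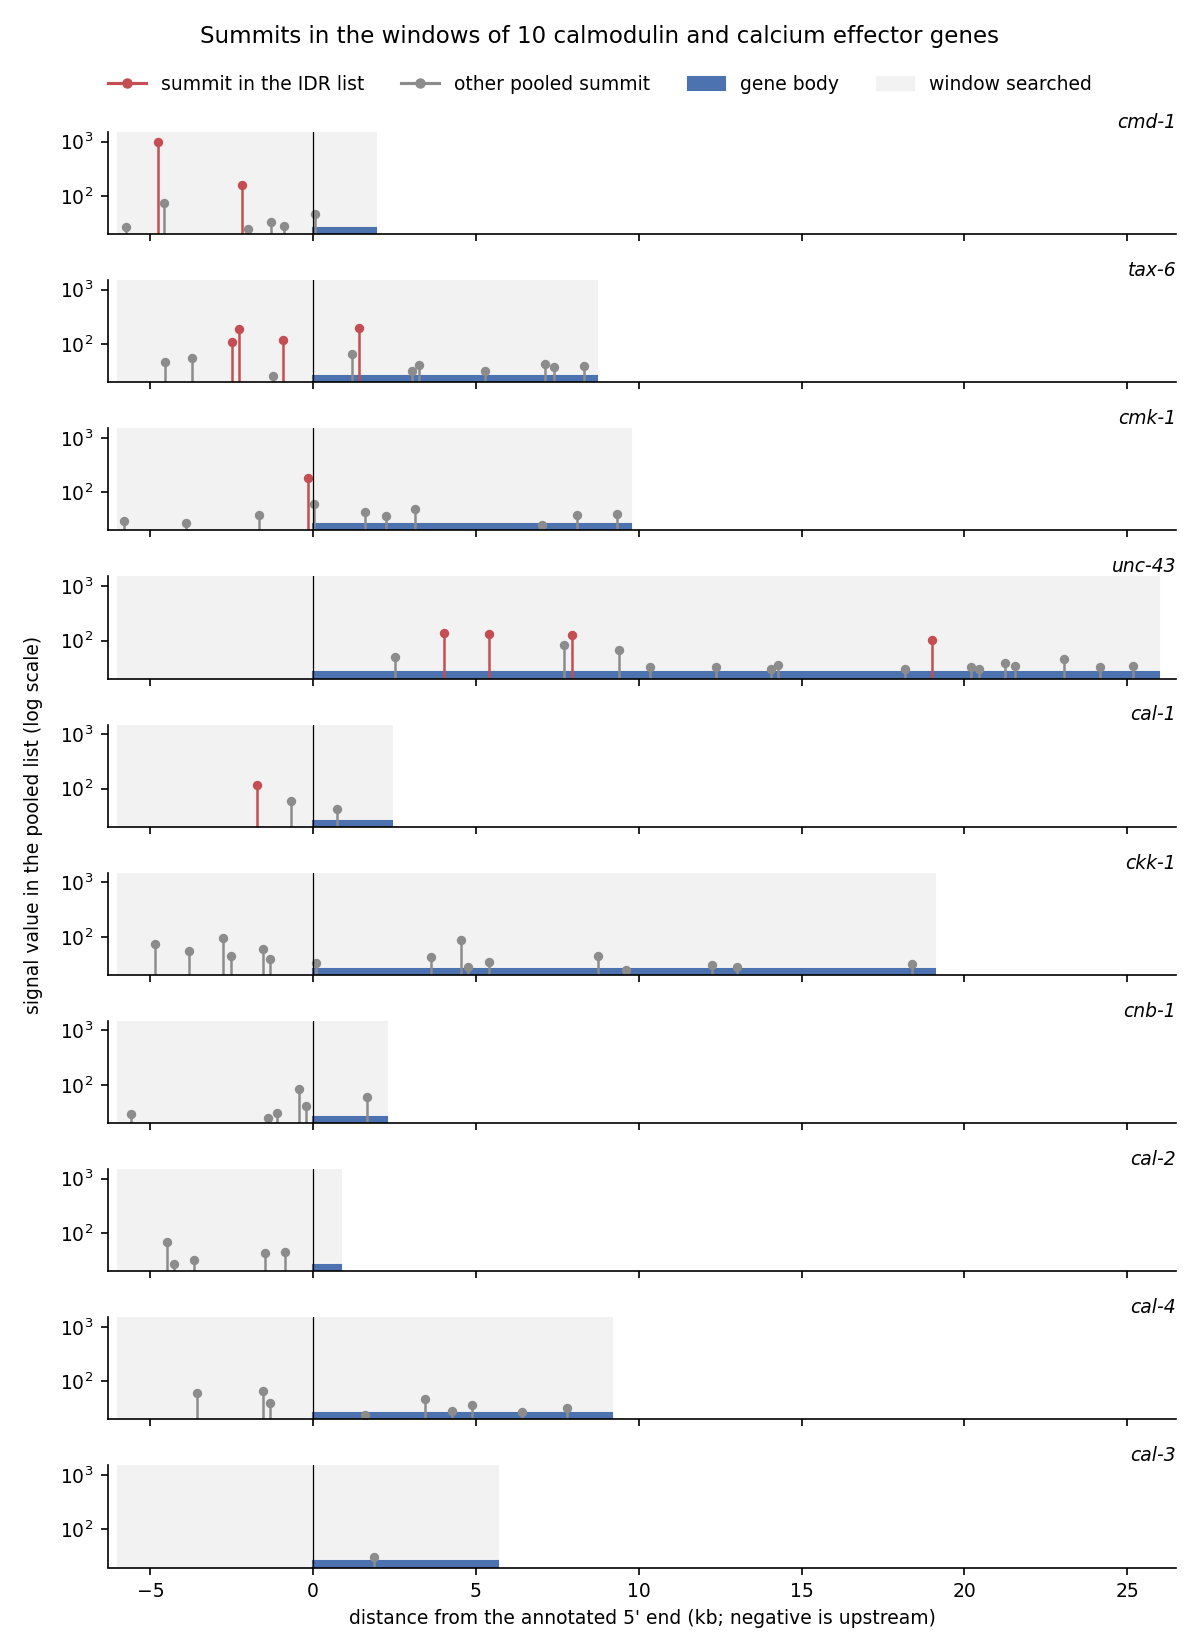
Summits of the pooled list in the windows of the 10 genes, by distance from the annotated 5' end (kb, horizontal) and signal value (log scale, vertical), with IDR summits in red, other pooled summits in grey, gene bodies in blue and the searched windows shaded. The cmd-1 summit at 998 stands above all others, tax-6 and unc-43 have 4 IDR summits each, and the 5 lower panels have none.

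The gene cmd-1 (WBGene00000552, chrV:1156271-1158189, plus strand) is short, and both of its IDR summits were upstream of it. The stronger, at position 1151505, had a signal of 998 in the pooled list (rank 3), 584 in replicate 2 (rank 1) and 450.4 in replicate 3 (rank 3). Its summit fell on the same base in the pooled list and both replicates. The signal was 6.81 times the median of all IDR peaks (147). Only 7 of the 3601 coding genes with an IDR summit in the window had a stronger one. No other coding gene had this summit in its window, and the next coding gene by outermost 5' end, cutl-22, was 9772 bp away, with shorter cutl-22 transcripts starting closer. The non-coding gene linc-128 (chrV:1150906-1153207, plus strand, 1 exon of 2302 bp) has its 5' end 599 bp before the summit and its 3' end 3064 bp before cmd-1. The summit is thus nearer to the start of linc-128 than to that of cmd-1. Replicate 2 had a further entry with its summit 4547 bp upstream, also inside linc-128, with a signal of 107 (rank 676). The pooled list had one at 4567 bp with 75.4. Each starts at the same base as the strongest peak of this window in its list and overlaps that peak, so neither is a separate region.

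The replicates differed at the second cmd-1 summit, at position 1154074. Its signal was 159 in the pooled list (rank 969), 33.8 in replicate 2 (rank 6340) and 112 in replicate 3 (rank 388). The ratio of replicate 2 to replicate 3 was 0.302, the lowest of the 2218 IDR peaks covered in both replicates, the next being 0.316. The median ratio over these peaks was 1.18, and the SD of the log2 ratio was 0.62, so the summit's distance from the median was -3.18 SD. At the stronger cmd-1 summit the ratio was 1.30, or 0.215 SD above the median. The pooled peak at the second summit was 153 bp wide and the replicate 3 peak 108 bp, while the replicate 2 peak over it was 510 bp wide with its summit 56 bp closer to cmd-1. Replicate 2 thus has a peak over the summit, at a rank well beyond the length of the IDR list. Peak width differs between the replicates here, and its part in the ratio was not tested. In the promoter window of cmd-1 the pooled list held 2 weak peaks. The one 48 bp downstream of the 5' end, in a coding exon, had 46.6 (rank 9359), 28.1 in replicate 2 and 21.6 in replicate 3. The one 887 bp upstream had 28.6, below the median of the pooled list, with 30.5 in replicate 2 and no peak of replicate 3 over it.

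**Figure D2:**
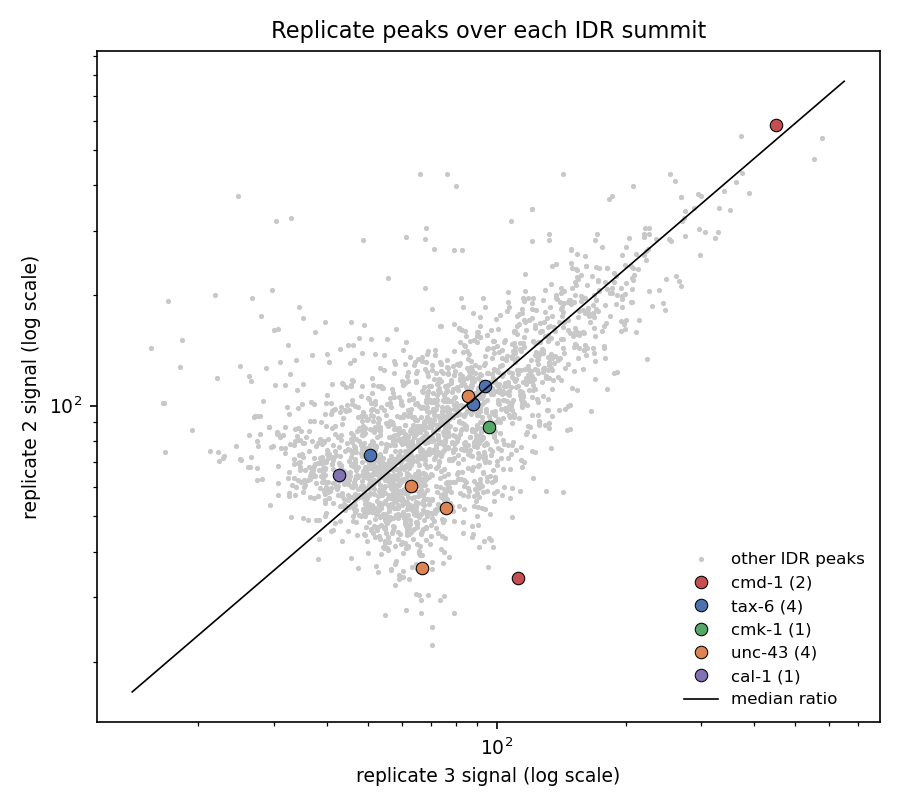
Signal of the replicate 2 peak (vertical, log scale) against that of the replicate 3 peak (horizontal, log scale) over each of 2218 IDR summits covered in both, with the members' 12 summits coloured by gene and the line at the median ratio of 1.18. A pair of tax-6 summits share their replicate peaks and coincide. The strongest cmd-1 summit lies near the line, and the other cmd-1 summit is the point farthest below it, at 33.8 against 112.

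The 4 calmodulin-like genes had weaker peaks. Their proteins carry EF-hands like calmodulin, and their functions are less well described. For cal-1 (WBGene00000285, chrV:12514835-12517248, minus strand) 1 IDR summit lay 1719 bp upstream, with a signal of 119 in the pooled list (rank 1603), 64.5 in replicate 2 (rank 1814) and 42.6 in replicate 3 (rank 2943). No other coding gene had it in its window, and no non-coding gene lay under it, the nearest annotated 5' end of any class being that of 21ur-14776 at 251 bp. In replicate 3 alone it ranked outside the number of peaks that the IDR list holds.

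None of cal-2, cal-3 and cal-4 had an IDR summit. For cal-2 (WBGene00000286, chrII:8960714-8961569) the strongest pooled peak, 4486 bp upstream, had a signal of 69.9 (rank 4112), with 36.1 in replicate 2 and 38.8 in replicate 3. That summit lay inside the neighbouring gene sftd-3 and the non-coding gene T21B10.8. For cal-4 (WBGene00000288, chrIV:10521406-10530598) it lay 1549 bp upstream with 67.6 (rank 4363), 31.5 in replicate 2 and 21.4 in replicate 3. The next, 3570 bp upstream with 59.9, was nearer to the 5' end of C02F4.4. The highest replicate peaks in the cal-4 window stood at other places, with 42.9 in replicate 2 (3663 bp upstream) and 31.2 in replicate 3 (4890 bp downstream). The window of cal-3 (WBGene00000287, chrIV:3829493-3835165), 11673 bp long, held 1 pooled peak, in an intron, with a signal of 31.0 (rank 20768), below the median of 37.0 over all pooled peaks. Replicate 3 had a peak over it with 19.8, and replicate 2 had none, its only peak in the window lying 2444 bp upstream with 17.9. Replicate values at cal-3 were thus also below the medians of their lists, 23.4 in replicate 2 and 21.9 in replicate 3.

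The calcineurin genes differed between subunits. For tax-6 (WBGene00006527, chrIV:10492869-10501600, minus strand), which encodes the catalytic subunit, the strongest of 4 IDR summits was 1407 bp downstream of the 5' end, in an intron. It had a signal of 200.1 in the pooled list (rank 570), 113 in replicate 2 (rank 592) and 93.9 in replicate 3 (rank 572). The summit 2290 bp upstream had 188 (rank 660), 101 in replicate 2 and 88.1 in replicate 3. Both summits lay inside short non-coding genes on the strand of tax-6. They were 4 bp from the 5' end of C02F4.11 (279 bp) and 44 bp from that of C02F4.10 (262 bp). For C02F4.10 this holds for the pooled summit only. The replicate summits there, 2366 bp upstream in replicate 2 and 2376 bp in replicate 3, had no non-coding gene under them. The summit 934 bp upstream, in the promoter window, had 121 (rank 1561), 73.5 in replicate 2 and 50.3 in replicate 3, and lay 140 bp from the 5' end of the non-coding gene C02F4.9. The last, 2495 bp upstream, had 108 (rank 1896) and lay under the same peak of each replicate as the one at 2290 bp, so these 2 entries are not separate in the replicates. No other coding gene had any of the 4 in its window. At all 4 the ratio of replicate 2 to replicate 3 was between 1.15 and 1.46, within 0.5 SD of the median.

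All 4 tax-6 summits were within 200 bp of the 5' end of a gene of the annotation's ncRNA class, which holds 7764 genes, and none of the other 8 IDR summits in the members' windows was. Those 2290 and 2495 bp upstream were near the same gene, C02F4.10, at 44 and 161 bp from its 5' end, and lay under the same peak of each replicate. The 4 summits are therefore not 4 separate cases. Over all IDR summits the share was 19.7%. Inside a non-coding gene of any class lay 3 of the 12 summits, the strongest at cmd-1 and the 2 strongest at tax-6. The share over all IDR summits was 14.8%. The tax-6 summit 2290 bp upstream counts here by its pooled position, as neither replicate summit there lay inside C02F4.10. The distance of 200 bp was chosen after these values were seen, and the function of these non-coding genes is not given by the annotation.

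For cnb-1 (WBGene00000554, chrV:11375742-11378006, plus strand), which encodes the regulatory subunit, no summit was in the IDR list. Its strongest pooled peak was 435 bp upstream, inside the non-coding gene F55C10.8, with a signal of 84.9 (rank 2909), 68.4 in replicate 2 (rank 1631) and 34.7 in replicate 3 (rank 4791). In replicate 2 alone it would rank within the number of peaks that the IDR list holds. In replicate 3 the strongest peak of the window stood elsewhere, 5625 bp upstream, with 39.5 (rank 3524).

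Among the kinase genes, cmk-1 and unc-43 had IDR summits and ckk-1 had none. For cmk-1 (WBGene00000553, chrIV:1824481-1834247, plus strand), which encodes calmodulin-dependent kinase I, 1 IDR summit lay 163 bp upstream. It had a signal of 181 in the pooled list (rank 722), 87.5 in replicate 2 (rank 1017) and 96.0 in replicate 3 (rank 548). This was the only member whose strongest peak was in the promoter window and in the IDR list, and no non-coding gene lay under it. The window of the collagen gene col-109 also held this summit.

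For unc-43 (WBGene00006779, chrIV:10324254-10350217, minus strand), which encodes calmodulin-dependent kinase II, all 4 IDR summits lay inside the gene and none upstream of it. The gene is 25964 bp long with 25 annotated transcripts and 20 different 5' ends. The summit 4031 bp downstream of the outermost 5' end had 136 in the pooled list (rank 1288), 52.5 in replicate 2 and 75.9 in replicate 3. Those at 5415 and 7938 bp had 130.1 and 126 in the pooled list. The first 2 also lay in the window of the neighbouring gene Y43C5B.3. All 3 were in introns, between 1712 and 4154 bp from the nearest annotated 5' end of an unc-43 transcript. The fourth summit, at 19018 bp, had 100.3 in the pooled list (rank 2168), 36.02 in replicate 2 (rank 5570) and 66.7 in replicate 3 (rank 1188). It lay 23 bp downstream of the 5' end of an internal unc-43 transcript, in an untranslated exon, and was the only one of the 4 near an annotated transcript start. The highest peak of the window in replicate 2 had its summit at 8029 bp, with 107, and that in replicate 3 at 7803 bp, with 85.6. Both cover the pooled summit at 7938 bp, but the replicate 3 summit is nearer to a separate pooled summit at 7715 bp, which had 83.6 and was not in the IDR list. Neither is the summit ranked first in the pooled list, at 4031 bp. The pooled signals of the 3 intronic summits are therefore not separated by the replicates.

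For ckk-1 (WBGene00000518, chrIII:5635479-5654564, plus strand), whose kinase phosphorylates CMK-1, the strongest pooled peak was 2771 bp upstream with a signal of 97.1 (rank 2311). It had 54.6 in replicate 2 (rank 2513) and 33.2 in replicate 3 (rank 5396). The lowest signal of the IDR list was 97.9, so this peak stood just outside it, and the unc-43 summit at 19018 bp, with 100.3, just inside. Another ckk-1 peak, 4532 bp downstream in an intron, had 87.4 in the pooled list and 50.2 in replicate 3 (rank 2154), with no peak of replicate 2 over it.

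**Figure D3:**
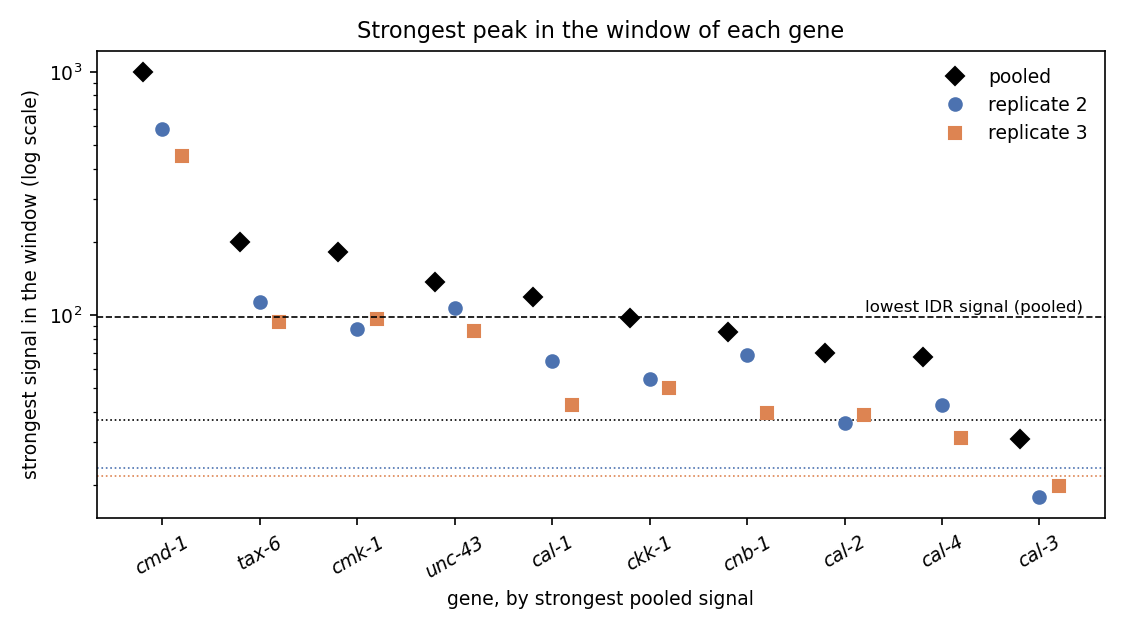
Strongest signal (log scale) in the window of each gene in the pooled list (diamonds), replicate 2 (circles) and replicate 3 (squares), with genes ordered by pooled signal. The dashed line is the lowest IDR signal (97.9) and the dotted lines are the medians of each list (37.0, 23.4 and 21.9); cmd-1 is the only gene far above the rest, and cal-3 the only one below every median.

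Ordered by their strongest pooled peak, the genes were cmd-1, tax-6, cmk-1, unc-43, cal-1, ckk-1, cnb-1, cal-2, cal-4 and cal-3. The value of cmd-1 was 4.99 times that of tax-6 in the pooled list, 5.15 times in replicate 2 and 4.79 times in replicate 3. Of the 9 pairs of neighbours in this order, 4 kept it in both replicates. In 3 of these 4 the ratio was over 1.53, the fold that 1 SD of the replicate ratio gives, in both replicates, namely cmd-1 over tax-6, unc-43 over cal-1 and cal-4 over cal-3. In the pooled list unc-43 over cal-1 was only 1.14, and cal-4 over cal-3 was 2.18. The order takes the strongest peak of windows that differ in length. Those of unc-43 (31964 bp) and cal-4 (15193 bp) were longer than those of cal-1 (8414 bp) and cal-3 (11673 bp), and the effect of length was not tested. At unc-43 and cal-4 the strongest replicate peaks also had summits elsewhere than the strongest pooled peak. The pair cnb-1 over cal-2 is the one left of those that kept their order. It had 1.89 in replicate 2 and 1.02 in replicate 3. The other 5 pairs changed places in 1 replicate, so tax-6, cmk-1 and unc-43 are not separated, nor are cal-1, ckk-1 and cnb-1, nor cal-2 and cal-4.

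**Figure D4:**
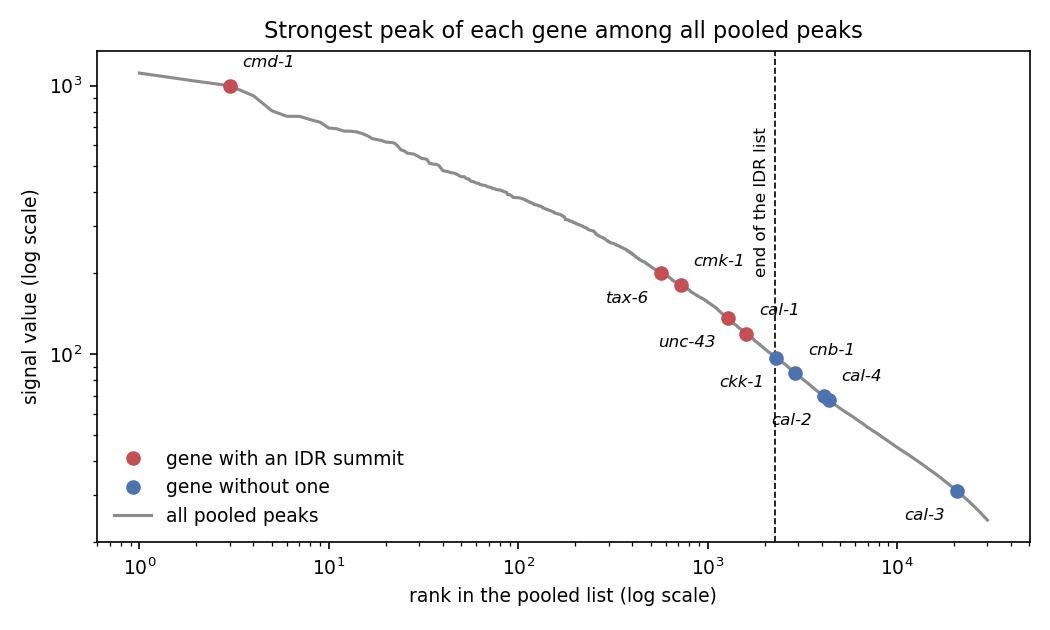
Signal value against rank of all 30000 pooled peaks (both log scales, grey), with the strongest peak of each gene in red where the gene has an IDR summit and in blue where it has none. The dashed line marks the end of the IDR list at 2268; cmd-1 is at rank 3, the next member, tax-6, at rank 570, and ckk-1 at rank 2311 is the first beyond the line.

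The IDR peaks most like the strongest cmd-1 peak, by Euclidean distance over the log2 signal in the pooled list and the 2 replicates, were those nearest to rpl-3 (distance 0.41), tasp-1 (0.43) and ppfr-1 (0.51). The rpl-3 gene encodes a ribosomal protein. The rpl-3 and tasp-1 summits lay 276 and 61 bp from the coding 5' end, within the promoter window, while that of ppfr-1 lay 6786 bp downstream of its 5' end. With 4766 bp, cmd-1 shares with ppfr-1 a summit far from the outermost 5' end of the nearest coding gene. Starts of shorter ppfr-1 transcripts were not examined, so the distance to the nearest coding start is not known there.

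Genes elsewhere in calcium signalling were counted in 5 lists drawn up by name, of which 65 of 68 genes were annotated under these names. An IDR summit in the window was found for 24 of the 65 (36.9%) and one in the promoter window for 6 (9.23%), beside 18.0% and 7.10% of all coding genes. Their median window was 11.4 kb. Of all coding genes with a window of at least 13.2 kb, 31.3% had a summit. By list, 4 of 10 calcium entry channel genes and 3 of 13 genes of calcium stores and pumps had a summit in the window. So did 5 of 20 other EF-hand genes and 7 of 12 targets and regulators. Among phospholipase C and protein kinase C genes, 5 of 10 had one. The median windows of these lists were 15.2, 13.6, 7.56, 14.2 and 20.7 kb, in this order. The strongest summit was nearest to another coding gene's 5' end at nca-2, egl-19, cal-7, mlc-1, unc-22, crh-1, rcan-1, plc-1 and plc-2. At the other genes with a summit it was nearest to their own. The genes mlc-1 and mlc-2 count the same summit.

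The promoter summits of these lists were at unc-36, crt-1, ncs-2, mlc-2, cbp-1 and pkc-3. At unc-36, which encodes a subunit of voltage-gated calcium channels, the signal was 171 in the pooled list, 103 in replicate 2 and 75.1 in replicate 3. At crt-1, the gene of the calcium-storing chaperone calreticulin, it was 269, with 112 in replicate 2 and 149.8 in replicate 3. The acetyltransferase gene cbp-1 had the strongest of the 6, with 677, 379 in replicate 2 and 296 in replicate 3. The other 3 were weaker, with 155 at ncs-2, a neuronal calcium sensor gene, 130.2 at pkc-3, an atypical protein kinase C gene, and 109 at mlc-2, a myosin light chain gene whose summit is also the one in the window of mlc-1.

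Outside the promoter windows, the summits of 2 genes are described, picked after their values were seen. At cal-7, another calmodulin-like gene, a summit 2903 bp upstream had 458 in the pooled list (rank 50), 294 in replicate 2 and 171 in replicate 3, but the coding 5' end nearest to it was that of drap-1, 1094 bp away. At egl-19, which encodes an L-type calcium channel, a summit 3341 bp upstream had 287 (rank 251), 155 in replicate 2 and 129.5 in replicate 3. The coding 5' end nearest to the egl-19 summit was that of C48A7.16, 3236 bp away and so only slightly closer. The signals of the cal-7 and egl-19 summits exceeded those of every member other than cmd-1 in the pooled list and in both replicates.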

How the data were processed

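ChIP-seq peak lists of 2 biological replicates of 1 group were used, with no comparison between groups and no test. Per the labels' file records, the authors called peaks on build ce11 for each replicate and for both pooled against 1 control alignment, and derived the IDR list from these. The deposited signal is a score of unstated scaling, and the deposited significance is a −log10 q-value, not used for any statement. The sources used here name no peak caller, aligner, filter or IDR threshold, and depth is unknown. The control and the signal tracks were not used.

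Summits (peak start plus offset) were intersected with Ensembl release 115 genes of assembly WBcel235, which is ce11, using Python 3.11.15 and pandas 2.3.3. Window counting was tested on simulated data. A replicate value is that of its strongest peak over the summit. Every entry was counted. By rule, named genes were the 10 members, genes under or nearest to their IDR summits and each pathway list's 2 strongest promoter summits. The rule also took the 3 peaks most like that of cmd-1. It added the 3 6-mers with the highest ratio to promoter windows, among those in at least 5% of IDR summit windows. Outside this rule, cal-7, egl-19, mlc-1 and the other pathway genes with a strongest summit nearest to another gene were named after their values were seen. So were the genes next to, under or sharing windows with other described peaks. The members and lists were chosen with earlier results of these data known. The names nca-1, cal-6 and cnp-1 were not matched in the annotation. Amino acid sequences were not used.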

Additional observations from a re-analysis of the deposited data

How the results depend on the processing

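No paired analysis was possible because there is 1 group and no comparison between groups. Taking the 1134 strongest IDR peaks, 3 members had a summit in the window (9.94% of coding genes), with 5 summits in all. In the promoter window 1 member had a summit (3.84% of coding genes). With 1000 bp upstream in place of 6000, 3 members had a summit (9.12% of coding genes), with 7 in all, and cmd-1 had none. A promoter window of 500 bp upstream to 100 bp downstream left 1 member, cmk-1, and the share over all coding genes was not computed for it. The 2268 strongest peaks of 1 replicate were also taken in place of the IDR list. Without replicate 2, 5 members had a summit (17.8% of coding genes) and 2 a promoter summit (6.83%). Without replicate 3, 6 members had a summit (17.2% of coding genes) and 3 a promoter summit (7.04%). The members' summits numbered 11 in each case. Without replicate 2, cal-1 had none, ckk-1 gained 1 and tax-6 had 3 in place of 4. Without replicate 3, cnb-1 gained 1 and unc-43 had 2 in place of 4. Of 45 pairs of members in the order by strongest signal, 43 kept their order without replicate 2 and 41 without replicate 3. Windows of 3000 or 10000 bp upstream and the member's own 5' end nearest kept each of these counts over all members within 1.5 times. So did promoters of 2000 bp upstream to 500 bp downstream and the 5' ends of all transcripts, each with 3 members in place of 2. The wider promoter added cal-1, and the 5' ends of all transcripts added unc-43. However, 3000 bp upstream left cmd-1 with 1 summit in place of 2, without the one 4766 bp upstream. Counting summits within 150 bp once left all 2268 IDR summits in place, so that setting could not change any count. It did not join the tax-6 summits 2290 and 2495 bp upstream. With 2 replicates and no read totals, small differences in signal between genes cannot be resolved.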
